A study of Homo sapiens with 14 samples.

Results

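The aminoacyl-tRNA synthetases are the enzymes that join each amino acid to its tRNA. The genes described here were chosen by name: 35 of the 18377 genes with a transcript cluster of their own on the arrays, of which 19 encode enzymes of the cytosol and 16, those with symbols ending in ARS2, encode enzymes of mitochondria. All 35 lay above the filter on dim genes and were tested. The data are 14 Affymetrix whole-transcript arrays of MiaPaCa2 cells, an established human pancreatic cancer line. The NF-kB set had 6 arrays, for siRelA, siRelB and a scrambled siRNA (siCtrl), each after 9 h in Earle's balanced salt solution (EBSS) or in a mock medium that the labels do not define. The Nupr1 set had 8 arrays, for siNupr1 and siCtrl, sampled at 0, 3, 6 and 9 h of starvation in EBSS, a salt solution that per the labels holds no amino acids, growth factors or glucose. Cells of every group, controls included, carried an siRNA. The arrays measured bulk RNA, so a lower level in some cells and a lower level per cell cannot be told apart. Each group was a single array, so p-values measure the spread around an additive fit and not a spread between repeated cultures. For the 9 h array of siNupr1 the title gives a different siRNA from the source field, and the 0 h arrays have titles that name DMEM while their source field names EBSS; they were used as siNupr1 and as unstarved.

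Cytosolic synthetases supply charged tRNA to the ribosomes that make most proteins, and several of them are held together in a multi-synthetase complex. Mitochondria use a separate, nuclear-encoded group for their own small genome, with GARS1 and KARS1 serving both compartments. Uncharged tRNA that builds up when amino acids run short activates the kinase GCN2 (EIF2AK4), which slows translation and raises the transcription factor ATF4. ATF4 and its partners bind C/EBP-ATF response elements, and many cytosolic synthetase genes are known ATF4 targets.

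Levels are RMA values on the log2 scale, where a difference of 1 is 2-fold, and array medians lay between 5.67 and 5.84. NUPR1, RELA and RELB were lower with their own siRNA, by -0.87 ± 0.10, -2.49 ± 0.13 and -1.32 ± 0.17 (log2 difference ± SE). RELB was also lower with siNupr1 (-0.67) and NUPR1 with siRelB (-0.43), both at a limma adjusted p under 0.05. With siRelA RELB stood at -0.36 and NUPR1 at -0.29, neither of them past that threshold. The keratin genes KRT8, KRT18 and KRT19 and the intermediate filament gene VIM had median levels between 10.2 and 13.0, while the epithelial adhesion genes EPCAM and CDH1 lay under the filter at 3.59 and 4.52. Of the markers of other cells, the 3 endothelial genes, DCN and LUM of fibroblasts and PTPRC and CD3E of leukocytes lay under the filter. So did the acinar genes PRSS1 and CPA1, at 3.84 and 5.49, and AMY2A, also acinar, had no transcript cluster of its own. COL1A1, COL3A1, CD14, CD68 and the acinar gene CELA3A passed the filter, with medians between 5.95 and 8.31.

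The promoters of the synthetase genes were searched for the core of the C/EBP-ATF response element, since many of these genes are known ATF4 targets. The motif was picked with the rise of synthetase genes in starvation already known, so its shares are given without a test. The letters searched were TGATGNAA on both strands, in RefSeq windows (GRCh38.p14) from 250 bases before to 50 after each annotated start. Of 30 members with a window 8 held a match, 7 of 16 cytosolic (43.8%) and 1 of 14 mitochondrial (7.1%). The share was 4.5% over all 27305 genes with a window and 2.5% over the 8849 genes with a window that were tested on the arrays. Genes with several starts have several windows and were counted as matched if any window held the letters. LARS1, VARS1, YARS1, AARS2 and VARS2 had no entry. The matches are shown with 30 bases before and 8 after, written along the gene, with the matched letters in capitals. A match on the opposite strand reads TTNCATCA.
AARS1: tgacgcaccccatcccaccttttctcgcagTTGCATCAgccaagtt
CARS1: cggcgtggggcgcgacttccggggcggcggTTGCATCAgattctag
GARS1: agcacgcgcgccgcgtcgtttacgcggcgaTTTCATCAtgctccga
IARS1: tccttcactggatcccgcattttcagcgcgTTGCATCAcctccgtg
MARS1: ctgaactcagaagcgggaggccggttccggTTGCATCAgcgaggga
NARS1: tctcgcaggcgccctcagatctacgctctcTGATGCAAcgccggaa
TARS1: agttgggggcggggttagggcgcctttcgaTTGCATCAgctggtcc
YARS2: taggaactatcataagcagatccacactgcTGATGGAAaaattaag
These lie at chr16:70289678-70289723 (minus strand) for AARS1, chr11:3057410-3057455 (minus) for CARS1, chr7:30594815-30594860 (plus) for GARS1 and chr9:92293695-92293740 (minus) for IARS1. The others lie at chr12:57488034-57488079 (plus) for MARS1, chr18:57621807-57621852 (minus) for NARS1, chr5:33440937-33440982 (plus) for TARS1 and chr12:32756079-32756124 (minus) for YARS2. The match began 2 bases before the annotated start in CARS1, 4 before it in MARS1, 13 in IARS1 and 33 in GARS1. It began 2 bases after the first transcribed base in TARS1 and 14 after it in NARS1, and lay 187 and 197 bases upstream in AARS1 and YARS2. A match is a description of these letters and not evidence of binding.

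The Nupr1 set follows the synthetase genes over hours of starvation in EBSS. After 9 h, 11 of 19 cytosolic genes had risen and 2 had fallen, while 0 of 16 mitochondrial genes had risen and 6 had fallen, with calls from limma where the Benjamini-Hochberg adjusted p was under 0.05. Over all 11026 genes tested, 9.19% rose and 15.1% fell. The median difference was 0.34 over the cytosolic and -0.29 over the mitochondrial genes, against -0.04 over all genes tested. Taken pair by pair, the mitochondrial median was -0.42 with siNupr1, whose 9 h array has the doubtful title, with 14 of 16 genes below 0, and -0.05 with siCtrl, with 11 of 16 below 0. The cytosolic median was 0.36 with siNupr1 and 0.29 with siCtrl.

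CARS1, which charges cysteine, had levels of 9.14, 9.84, 10.05 and 10.17 at 0, 3, 6 and 9 h with siNupr1. With siCtrl its levels were 8.92, 10.01, 10.20 and 10.54. Every starved array lay above both 0 h arrays, and the difference at 9 h was 1.33 ± 0.15 (SE, n = 2 pairs, limma adjusted p = 3.53e-06). SARS1, the seryl-tRNA synthetase, was at 10.52, 11.10, 11.24 and 11.39 with siNupr1 and at 10.38, 10.99, 11.20 and 11.51 with siCtrl. It was higher at each later time in both siRNA series, and by 1.0 ± 0.10 at 9 h (n = 2 pairs, limma adjusted p = 1.07e-06). AARS1, for alanine, was at 11.22, 11.77, 11.85 and 11.96 with siNupr1 and at 10.81, 11.64, 11.67 and 11.92 with siCtrl. Its difference at 9 h was 0.92 ± 0.09 (n = 2 pairs, limma adjusted p = 2.89e-07), and all starved arrays lay above both 0 h arrays. TARS1, for threonine, was at 10.16, 10.45, 10.68 and 11.23 with siNupr1 and at 10.56, 10.80, 10.81 and 11.23 with siCtrl. Here the 3 h array with siNupr1 lay under the 0 h array with siCtrl, and the 9 h arrays lay above both 0 h arrays, by 0.87 ± 0.11 (n = 2 pairs, limma adjusted p = 7.21e-06).

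**Figure D1:**
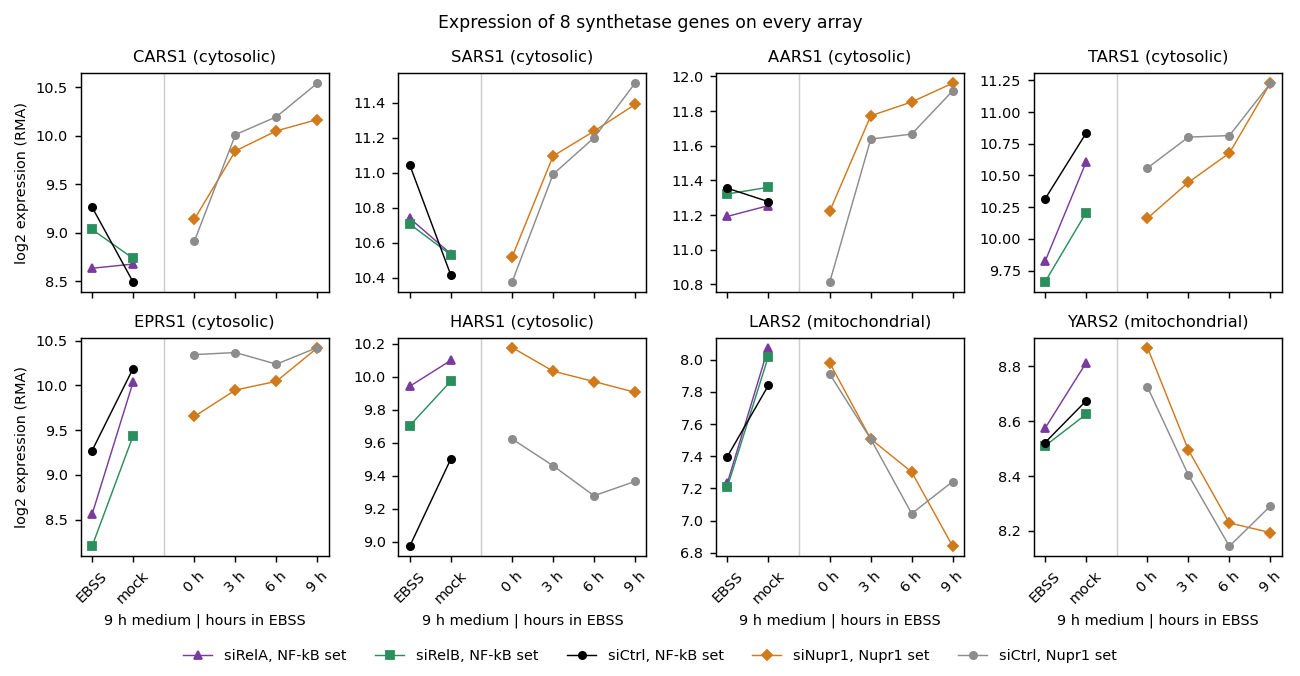
Log2 expression (RMA) of 8 synthetase genes on each of the 14 arrays; the left part of a panel shows EBSS and mock at 9 h (NF-kB set, triangles siRelA, squares siRelB, black circles siCtrl) and the right part 0, 3, 6 and 9 h in EBSS (Nupr1 set, diamonds siNupr1, grey circles siCtrl). CARS1, SARS1, AARS1 and TARS1 climb over the hours in EBSS in both siRNA series, LARS2 and YARS2 are lower on every starved array of the Nupr1 set than at 0 h, EPRS1 and TARS1 are lower in EBSS than in mock, and HARS1 is lowest with siCtrl in each set.

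The other cytosolic genes that rose at 9 h were GARS1 (glycine, 0.67 ± 0.09), YARS1 (tyrosine, 0.63 ± 0.10), MARS1 (methionine, 0.50 ± 0.11), EPRS1 (0.42 ± 0.14), WARS1 (tryptophan, 0.37 ± 0.08), NARS1 (asparagine, 0.34 ± 0.11) and IARS1 (isoleucine, 0.32 ± 0.08). EPRS1 encodes a fused enzyme for glutamate and proline. FARSA, the alpha subunit of the phenylalanyl enzyme, fell by 0.43 ± 0.10 and RARS1, for arginine, fell by 0.29 ± 0.10. The beta subunit gene FARSB was at -0.02 ± 0.10, and LARS1, HARS1, KARS1, QARS1 and VARS1 lay between -0.26 and 0.15 without a call. Of the 7 genes whose products sit in the multi-synthetase complex 3 rose and 1 fell, with a median of 0.14, and of the 12 outside it 8 rose and 1 fell, with a median of 0.50. No test was made between these groups.

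By promoter, 7 of the 10 genes that rose at 9 h and have a window held a TGATGNAA match, namely AARS1, CARS1, GARS1, IARS1, MARS1, NARS1 and TARS1. Of the 8 that fell 1 held a match, YARS2, and of the 12 that were not called 0 did. Across all tested genes with a window, 6.4% of 827 that rose, 2.2% of 1439 that fell and 2.0% of 6583 that were not called held a match. SARS1, WARS1 and EPRS1 rose and had no match in their windows. These shares are given without a test, since the motif was picked with the rise of these genes known.

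The genes called were not the same at each time, and a difference in timing between genes was not tested. At 3 h 6 cytosolic genes had risen, CARS1 (0.90 ± 0.15), AARS1 (0.69 ± 0.09), SARS1 (0.60 ± 0.10), MARS1 (0.51 ± 0.11), YARS1 (0.49 ± 0.10) and GARS1 (0.38 ± 0.09), where 3.27% of all genes rose. TARS1 and WARS1 joined them at 6 h (0.38 ± 0.11 and 0.25 ± 0.08), when 8 had risen and 7.65% of all genes had. RARS1 fell by 0.53 ± 0.10 at 3 h and by 0.31 ± 0.10 at 6 h, and FARSB fell by 0.34 ± 0.10 at 3 h. Tested directly between 9 h and 3 h, TARS1 was higher at 9 h by 0.60 ± 0.11 (limma adjusted p = 0.00203) and SARS1 by 0.41 ± 0.10 (limma adjusted p = 0.0229). They were 2 of 35 members, beside 4.68% of all genes that rose. By limma 0 members fell, beside 2.66% of all genes, and 17 members had an unadjusted p under 0.05, as had 22.5% of all genes.

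Among the mitochondrial genes, LARS2, which charges leucine, was at 7.98, 7.51, 7.30 and 6.84 with siNupr1 at 0, 3, 6 and 9 h. With siCtrl it was at 7.91, 7.51, 7.04 and 7.24. Every starved array lay under both 0 h arrays, and the difference at 9 h was -0.90 ± 0.15 (n = 2 pairs, limma adjusted p = 0.000154). YARS2, for tyrosine, was at 8.87, 8.50, 8.23 and 8.19 with siNupr1 and at 8.72, 8.40, 8.14 and 8.29 with siCtrl. It too was under both 0 h arrays on all starved arrays and fell by 0.55 ± 0.11 at 9 h (n = 2 pairs, limma adjusted p = 0.00139). HARS2, for histidine, was at 7.84, 7.38, 6.93 and 6.99 with siNupr1 and at 7.52, 7.39, 6.73 and 7.20 with siCtrl. Its level was lowest at 6 h with both siRNAs, with differences of -0.85 ± 0.14 at 6 h and -0.58 ± 0.14 at 9 h. MARS2, for methionine, was at 8.11, 7.46, 7.81 and 7.73 with siNupr1 and at 8.18, 7.57, 7.84 and 7.90 with siCtrl. It was lowest at 3 h with both siRNAs (-0.63 ± 0.12), and at 9 h it stood at -0.33 ± 0.12.

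EARS2 (glutamate, -0.46 ± 0.13) and TARS2 (threonine, -0.37 ± 0.14) were the other mitochondrial genes that fell at 9 h. NARS2 fell at 3 h (-0.42 ± 0.13) and 6 h (-0.46 ± 0.13) and was at -0.17 ± 0.13 at 9 h, without a call. The mitochondrial genes with a fall numbered 2 at 3 h and 4 at 6 h, where 9.07% and 15.7% of all genes fell. The remaining 9 mitochondrial genes had no call at any of the 3 times, with differences at 9 h between -0.32 (FARS2) and 0.10 (PARS2).

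**Figure D2:**
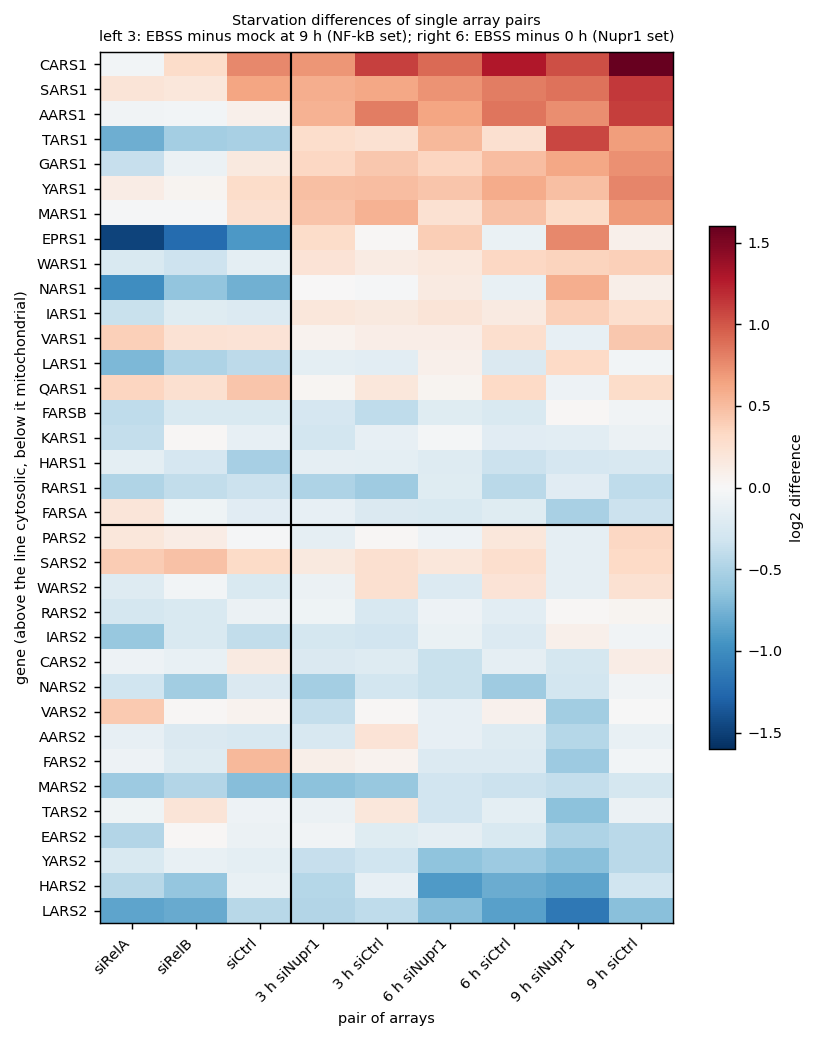
Log2 differences of single pairs of arrays for the 35 synthetase genes, ordered within each compartment by the 9 h difference of the Nupr1 set; the left 3 columns are EBSS minus mock and the right 6 columns EBSS minus 0 h, with red for higher and blue for lower in EBSS. CARS1, SARS1 and AARS1 are red in all 6 pairs of the Nupr1 set, LARS2, HARS2 and YARS2 are blue in all 9 pairs, and EPRS1, NARS1 and TARS1 are blue in the 3 pairs of the NF-kB set.

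Single arrays moved these counts. The 19 calls at 9 h became 12 without the siNupr1 0 h array and 11 without the siNupr1 9 h array, whose title is in doubt. The 10 calls at 3 h became 4 when either the 0 h array of siCtrl or the 3 h array of siNupr1 was dropped, and the 13 at 6 h became 8 without the siCtrl 0 h and 6 without the siCtrl 6 h array. At 9 h the calls of AARS1, CARS1, GARS1, SARS1, TARS1, WARS1, YARS1, LARS2 and YARS2 were kept under every alternative tried. Without the siNupr1 0 h and 9 h arrays the adjusted p was 0.504 and 0.419 for EPRS1, 0.338 and 0.469 for NARS1, 0.0645 and 0.0535 for IARS1, 0.0992 and 0.113 for HARS2 and 0.439 and 0.463 for TARS2. FARSA (0.0702) lost its call without the siNupr1 9 h array. EARS2 lost it without that array or the siCtrl 0 h array (0.11 and 0.0973), and MARS1 without the siCtrl 0 h or 9 h array (0.064 and 0.0535). The MARS2 and RARS1 calls were lost when any of 13 and 12 of the 14 arrays was dropped, as was that of TARS2 for 12. Between 9 h and 3 h TARS1 lost its call when the 3 h array of siNupr1 was dropped (adjusted p = 0.0945), and that of SARS1 without the siCtrl 3 h, siCtrl 9 h or siNupr1 3 h array (0.234, 0.179 and 0.144). At 3 h, dropping 1 array of the 0 h or 3 h groups ended the calls of GARS1 (up to 0.137), MARS1 (0.111), YARS1 (0.0992), RARS1 (0.0728), FARSB (0.279) and NARS2 (0.417). At 6 h, dropping 1 array of the 0 h or 6 h groups ended those of GARS1 (up to 0.0859), LARS2 (0.0606), MARS1 (0.29), NARS2 (0.382), RARS1 (0.375), TARS1 (0.162) and WARS1 (0.445). EPRS1 and NARS1 also lost their 9 h calls with quantile normalization (0.0605 and 0.0639) and array weights (0.107 and 0.108). So did MARS2 and TARS2, with quantile normalization (0.0628 and 0.078) and array weights (0.154 and 0.144). EARS2 and RARS1 lost theirs with array weights (0.0743 and 0.156). The time course calls of CARS1, AARS1 and SARS1 at 3 and 6 h were kept without any 1 array.

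In the NF-kB set, starvation is set against a mock medium at a single time, 9 h. Here 4 cytosolic genes rose and 9 fell, and 1 mitochondrial gene rose and 5 fell, where 22.6% of all genes rose and 29.3% fell. The median difference was -0.17 over the cytosolic and -0.17 over the mitochondrial genes, against 0.05 over all genes.

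EPRS1 had levels of 8.56, 8.20 and 9.27 in EBSS with siRelA, siRelB and siCtrl, against 10.03, 9.43 and 10.19 in mock. All EBSS arrays lay under all mock arrays, and the difference was -1.21 ± 0.12 (n = 3 pairs, limma adjusted p = 6.41e-08). NARS1 was at 9.94, 10.18 and 10.33 in EBSS and at 10.93, 10.82 and 11.10 in mock with the same siRNAs, again without overlap (-0.80 ± 0.09, n = 3 pairs, limma adjusted p = 5.85e-07). TARS1 was at 9.82, 9.66 and 10.31 in EBSS and at 10.60, 10.21 and 10.83 in mock. It was lower in EBSS in each pair, with overlap between the groups through the EBSS array with siCtrl, and the difference was -0.61 ± 0.09 (n = 3 pairs, limma adjusted p = 8.07e-06). LARS1 (-0.54 ± 0.09), RARS1 (-0.41 ± 0.09), HARS1 (-0.32 ± 0.09), FARSB (-0.30 ± 0.08), IARS1 (-0.25 ± 0.07) and WARS1 (-0.24 ± 0.07) were also lower in EBSS.

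CARS1 was at 8.63, 9.03 and 9.26 in EBSS with siRelA, siRelB and siCtrl, against 8.68, 8.74 and 8.49 in mock. It was higher in EBSS with siCtrl and siRelB but not with siRelA, where the pair differed by -0.04, and the mean difference was 0.34 ± 0.13 (n = 3 pairs, limma adjusted p = 0.0289). That call was lost without any 1 of the siCtrl or siRelB arrays (adjusted p between 0.0737 and 0.445). SARS1 was at 10.74, 10.71 and 11.05 in EBSS and at 10.54, 10.53 and 10.42 in mock (0.34 ± 0.09, limma adjusted p = 0.00313). It was higher in all 3 pairs, and its call was lost without the siCtrl EBSS or mock array (0.105 and 0.103). QARS1, for glutamine (0.35 ± 0.09), and VARS1, for valine (0.28 ± 0.10), also rose. AARS1 was at 11.19, 11.32 and 11.36 in EBSS and at 11.25, 11.36 and 11.28 in mock, a difference of -0.01 ± 0.07 without a call.

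LARS2 was the mitochondrial gene furthest below 0, at 7.23, 7.21 and 7.40 in EBSS with siRelA, siRelB and siCtrl against 8.07, 8.02 and 7.84 in mock (-0.70 ± 0.12, n = 3 pairs, limma adjusted p = 7.8e-05). MARS2 was at 7.46, 7.85 and 7.78 in EBSS and at 8.04, 8.32 and 8.47 in mock (-0.58 ± 0.10). Neither gene's EBSS and mock arrays overlapped. IARS2 (-0.42 ± 0.09), HARS2 (-0.39 ± 0.12) and NARS2 (-0.37 ± 0.11) fell as well, and SARS2, for serine, rose by 0.39 ± 0.11. YARS2 was at -0.17 ± 0.09 here, without a call.

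Differences between EBSS and mock moved with genomic span over all genes (Spearman rho = -0.42 across 11019 genes, which share arrays and are not independent). Over the 35 members rho was -0.24. When a trend on span was removed from each array, FARSB, IARS1, NARS2, QARS1, VARS1 and WARS1 lost their calls (adjusted p = 0.613, 0.89, 0.484, 0.135, 0.0809 and 0.179). EPRS1, NARS1, TARS1, LARS1, RARS1, IARS2, LARS2, MARS2 and SARS2 kept theirs under that and every other alternative tried. HARS1 lost its call without either siCtrl array (0.11 and 0.112), HARS2 without any of the siRelA or siRelB arrays (up to 0.129), VARS1 without any array of the set (up to 0.162), and NARS2 and WARS1 without either siRelB array (up to 0.112 and 0.0566).

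The sets were compared within the same fit, as the 9 h difference of the Nupr1 set minus the EBSS against mock difference. Of 35 members 13 were higher in that contrast and 1 was lower, beside 16.4% and 8.11% of all genes. EPRS1 stood at 0.42 ± 0.14 in the Nupr1 set and -1.21 ± 0.12 in the NF-kB set, a difference of 1.63 ± 0.18 (limma adjusted p = 3.81e-06). TARS1 stood at 0.87 ± 0.11 and -0.61 ± 0.09, a difference of 1.48 ± 0.14 (limma adjusted p = 6.81e-07), and NARS1 at 0.34 ± 0.11 and -0.80 ± 0.09, a difference of 1.13 ± 0.14 (limma adjusted p = 1.27e-05). Of the 14 calls 12 were cytosolic rises, 1 was a mitochondrial rise (IARS2, 0.43 ± 0.14) and 1 was a cytosolic fall (FARSA, -0.41 ± 0.13). The siCtrl pairs, the one siRNA label that the sets share, gave 0.08 in the Nupr1 set and -0.92 in the NF-kB set for EPRS1, 0.67 and -0.52 for TARS1, and 0.09 and -0.77 for NARS1. These are single pairs with no test. The unstarved medium (0 h against mock) and other differences between the sets cannot be told apart.

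**Figure D3:**
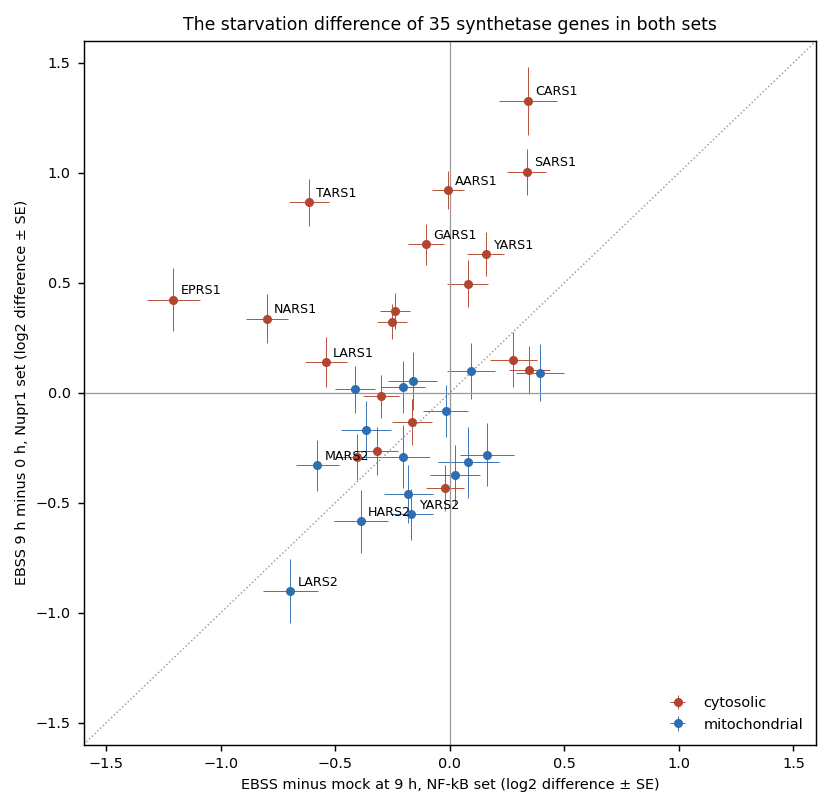
Log2 difference ± SE of the 35 synthetase genes (red cytosolic, blue mitochondrial) for EBSS minus mock in the NF-kB set on the x axis and EBSS at 9 h minus 0 h in the Nupr1 set on the y axis, with equal values on the dotted line. EPRS1, NARS1 and TARS1 lie in the upper left, CARS1 and SARS1 in the upper right and LARS2, HARS2 and MARS2 in the lower left.

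Companion genes were read from lists that were chosen with earlier results of these data known. Of 10 amino acid response regulators limma called 7 higher and 2 lower at 9 h in the Nupr1 set, beside 9.19% and 15.1% of all genes. In EBSS against mock 7 were called higher and 2 lower, beside 22.6% and 29.3% of all genes. ATF4 was higher by 0.62 ± 0.12 at 9 h and by 0.38 ± 0.10 against mock, and ASNS, the asparagine synthetase and an ATF4 target, by 1.18 ± 0.10 and 0.45 ± 0.08. EIF2AK4 fell by 0.36 ± 0.11 at 9 h. Of 16 genes for the complex scaffold, tRNA export and related steps 10 were tested. At 9 h 2 of them fell, a share near the 15.1% of all genes, against mock 6 fell, beside 29.3% of all genes, and 0 rose in either. XPOT, the tRNA export receptor, was at 0.30 ± 0.11 at 9 h without a call. AIMP1, a scaffold protein of the complex, was at -0.24 ± 0.14, also without one. Of 14 mitochondrial translation factors 12 were tested. At 9 h 2 rose, MTO1 (0.46 ± 0.12) and MTRF1L (0.36 ± 0.12), and 2 fell, the elongation factor genes GFM1 (-0.36 ± 0.12) and TSFM (-0.42 ± 0.15), beside 9.19% and 15.1% of all genes. Against mock 7 of the 12 fell and 0 rose, beside 29.3% and 22.6% of all genes. The median of these 12 was -0.13 at 9 h and -0.29 against mock.

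The siRNA comparisons set siNupr1, siRelA or siRelB against siCtrl, with 1 siRNA label per target. Loss of the target, other effects of an siRNA and the state of the siCtrl arrays cannot be told apart. RELB was also lower with siNupr1 and NUPR1 with siRelB, as given above. With siNupr1 5 members rose and 2 fell, beside 9.86% and 8.58% of all genes. HARS1 was at 10.18, 10.03, 9.97 and 9.90 with siNupr1 at 0, 3, 6 and 9 h, against 9.62, 9.46, 9.28 and 9.36 with siCtrl. All siNupr1 arrays lay above all siCtrl arrays, by 0.59 ± 0.08 (n = 4 pairs, limma adjusted p = 5.4e-05). VARS1 was at 9.80, 9.86, 9.91 and 9.67 with siNupr1 and at 9.15, 9.26, 9.41 and 9.58 with siCtrl, again without overlap (0.46 ± 0.09, n = 4 pairs, limma adjusted p = 0.00137). Its pair differences were 0.66 at 0 h and 0.09 at 9 h. Both calls were kept under every alternative tried.

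CARS2 (0.34 ± 0.08), FARSA (0.25 ± 0.07) and AARS1 (0.19 ± 0.06) were also higher with siNupr1, and EPRS1 (-0.33 ± 0.10) and TARS1 (-0.22 ± 0.08) were lower. CARS2, for cysteine in mitochondria, was at 9.57, 9.33, 9.21 and 9.28 with siNupr1 and at 9.06, 8.86, 8.92 and 9.18 with siCtrl, without overlap. FARSA was at 10.61, 10.49, 10.37 and 10.09 with siNupr1 and at 10.34, 10.11, 10.14 and 10.00 with siCtrl, with overlap through the 9 h array of siNupr1. These 5 calls were lost when single arrays were left out. CARS2 lost its call without either 3 h array (adjusted p = 0.0781 and 0.0791), and EPRS1 without either 0 h or 3 h array (up to 0.211). With quantile normalization AARS1 stood at 0.183. AARS1, FARSA and TARS1 lost theirs without any 0 h, 3 h or 6 h array (up to 0.262, 0.179 and 0.253), and TARS1 also without the siCtrl or siRelB mock array (0.0508 and 0.0503). The count of 7 became 2 without either 3 h array, 3 without either 0 h array and 4 without either 6 h array. EPRS1 was at 9.65, 9.95, 10.05 and 10.42 with siNupr1 and at 10.34, 10.37, 10.24 and 10.42 with siCtrl, and the pair at 0 h differed by -0.69. Whether the siNupr1 difference changed per hour was also tested, and limma called 0 of 35 members and 0 of 11026 genes, with 11 members and 19.5% of all genes at an unadjusted p under 0.05. In the Nupr1 set alone 5 members were called, EPRS1, NARS1 and TARS1 with a positive slope and CARS1 and VARS1 with a negative one, beside 7.63% of all genes in that fit. CARS1 differed by -0.12 ± 0.11 over the 4 pairs, without a call.

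With siRelA 5 members rose and 4 fell, beside 10.1% and 11.4% of all genes, and with siRelB 3 rose and 3 fell, beside 7.58% and 8.55%. Both comparisons use the same siCtrl arrays. For HARS1 the siRelA arrays read 9.94 in EBSS and 10.10 in mock, the siRelB arrays 9.70 and 9.97, and the siCtrl arrays 8.97 and 9.50. It was higher by 0.78 ± 0.11 with siRelA (n = 2 pairs, limma adjusted p = 4.51e-05) and by 0.60 ± 0.11 with siRelB (n = 2 pairs, limma adjusted p = 0.0007). The siRelB call was lost without the siCtrl EBSS array (adjusted p = 0.0569). EPRS1 was lower by -0.91 ± 0.14 with siRelB (limma adjusted p = 0.000189) and by -0.43 ± 0.14 with siRelA (limma adjusted p = 0.0339), and TARS1 by -0.64 ± 0.11 and -0.36 ± 0.11. The siRelB calls of EPRS1 and TARS1 were kept under every alternative tried. The siRelA call of EPRS1 was lost without the siCtrl or siRelA EBSS array (0.515 and 0.456) and with quantile normalization (0.0748). That of TARS1 was lost without those (0.22 and 0.28) or the siCtrl mock array (0.062) and with quantile normalization (0.0685).

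For VARS1 the siRelA arrays read 9.97 in EBSS and 9.59 in mock, against 9.29 and 9.07 with siCtrl, without overlap (0.60 ± 0.12, n = 2 pairs, limma adjusted p = 0.00167). With siRelB it was at 9.52 and 9.29 (0.23 ± 0.12), without a call. GARS1 was lower with siRelA (-0.50 ± 0.09), at 10.75 in EBSS and 11.12 in mock against 11.52 and 11.36 with siCtrl, a call lost without the siCtrl or siRelA EBSS array (0.0779 and 0.0509). KARS1 (0.38 ± 0.10), QARS1 (0.37 ± 0.11) and CARS2 (0.37 ± 0.12) rose with siRelA and MARS2 fell (-0.38 ± 0.12). KARS1, for lysine, read 10.52 in EBSS and 10.90 in mock with siRelA, against 10.26 and 10.40 with siCtrl, and did not overlap. QARS1 read 10.09 and 9.75 with siRelA against 9.77 and 9.33 with siCtrl, and overlapped. CARS2 read 9.67 and 9.75 with siRelA against 9.42 and 9.27 with siCtrl, without overlap. These 4 calls were lost without 3 or more single arrays (up to 0.321, 0.257, 0.397 and 0.28). TARS2 (0.55 ± 0.14) and WARS2 (0.42 ± 0.13) rose with siRelB and FARSB fell (-0.29 ± 0.10). TARS2 read 8.52 in EBSS and 8.31 in mock with siRelB, against 7.82 and 7.90 with siCtrl. WARS2, for tryptophan, read 7.28 and 7.33 with siRelB against 6.77 and 7.01 with siCtrl, and FARSB 9.93 and 10.18 against 10.22 and 10.47. The groups did not overlap in TARS2, WARS2 or FARSB, which had been called on the same arrays. The share of all genes without overlap is not given here for any comparison. TARS2 lost its call without the siCtrl or siRelB EBSS array (0.123 and 0.187), WARS2 when any of 6 arrays was dropped, and FARSB for any of 8. The siRelA count of 9 became 3 to 5 without any single siCtrl or siRelA array of the set, and stayed at 9 without either siRelB array. The siRelB count of 6 became 2 without the siCtrl EBSS and 3 without the siRelB EBSS array.

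Set against siRelA directly, siRelB gave 4 lower members and 0 higher, beside 4.61% and 5.46% of all genes. They were EPRS1 (-0.48 ± 0.14), LARS1 (-0.43 ± 0.11), CARS2 (-0.40 ± 0.12) and FARSB (-0.33 ± 0.10), with limma adjusted p between 0.0188 and 0.0366. LARS1, for leucine, read 9.47 in EBSS and 9.96 in mock with siRelB, against 9.79 and 10.50 with siRelA, and the groups overlapped. The count became 0 without either siRelB array and 1 and 2 without the siRelA mock and EBSS arrays. It became 1 without the siCtrl 3 h array and 2 without the siNupr1 3 h or either 6 h array of the Nupr1 set. A dependence of the siRelA or siRelB difference on the medium, tested after the values were seen, was called by limma in 0 of 35 members for either siRNA, beside 0.0363% of all genes for siRelA, all of which rose. At an unadjusted p under 0.05 there were 4 and 2 members, beside 5.19% and 3.64% of all genes. Among these 4 was CARS1, at -0.81 ± 0.26 for siRelA in EBSS minus mock (limma adjusted p = 0.666).

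**Figure D4:**
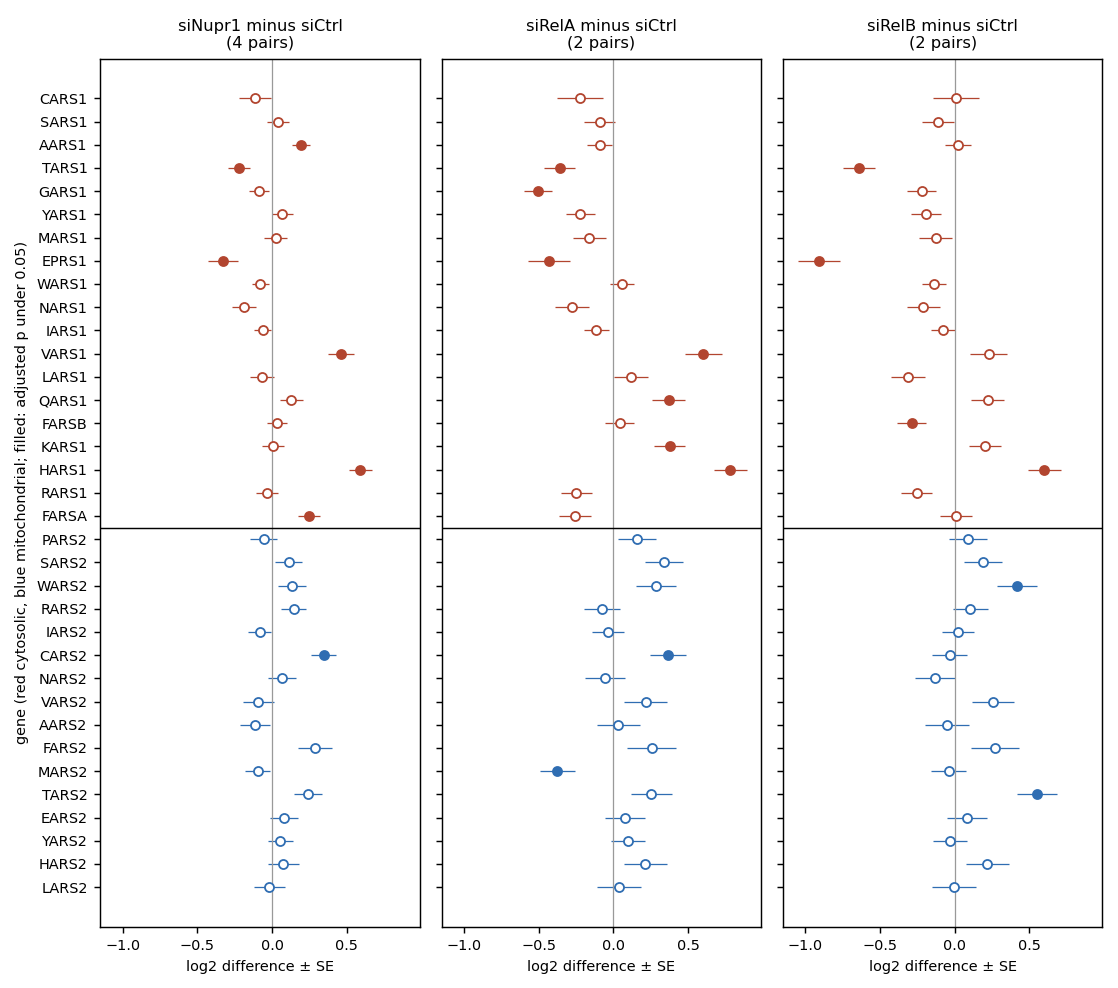
Log2 difference ± SE of each synthetase gene for siNupr1, siRelA and siRelB minus siCtrl, with filled points for an adjusted p under 0.05 and the mitochondrial genes in blue under the line. HARS1 lies to the right in all 3 panels and EPRS1 and TARS1 to the left, with siRelA and siRelB measured against the same siCtrl arrays.

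HARS1 and HARS2 lie head to head on chromosome 5, with annotated starts 85 bases apart (GRCh38.p14). The 84 bases between the starts, shown because both genes are members, lie at chr5:140691371-140691454 and are written on the plus strand, the strand of HARS2.
Between HARS1 and HARS2: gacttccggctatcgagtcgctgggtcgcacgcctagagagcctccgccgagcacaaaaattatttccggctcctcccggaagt
HARS2 differed by 0.08 ± 0.10 with siNupr1, 0.22 ± 0.14 with siRelA and 0.22 ± 0.14 with siRelB, without a call, where HARS1 rose with each. At 9 h in the Nupr1 set HARS2 fell by 0.58 ± 0.14 and HARS1 was at -0.26 ± 0.11 without a call. Against mock both fell, HARS1 by 0.32 ± 0.09 and HARS2 by 0.39 ± 0.12. No test was made between the genes.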

How the data were processed

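RNA of MiaPaCa2 cells was measured on 14 arrays. The deposited values are on a log2 scale, made by the authors with RMA (background correction, quantile normalization and summary per transcript cluster), and limma is also named, per the submitters' processing notes; their versions, the annotation and the build were not given in the sources used here. Of 28869 transcript clusters, 19310 had 1 gene symbol in the array annotation, updated by Entrez identifier (19279 matched), which gave 18377 genes with the brightest cluster kept. VARS1 and VARS2 have 2 clusters each; those of VARS1 hold identical values. The dimmest 40% of genes (mean under 5.80) were left out and 11026 tested.

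All arrays entered 1 linear model with terms for siRNA and for condition within each set (9 columns, 5 residual and 19.6 total degrees of freedom) was fitted with limma 3.58.1 in R 4.3.3 (lmFit, eBayes with an intensity trend), with Benjamini-Hochberg adjustment over all tested genes of a comparison. Nothing in the labels tells if arrays were made from separate cultures. The fit was tested on simulated data. The members, lists, motif and comparisons were chosen with earlier results of these data known. Members shown array by array are the 4 of each compartment with the largest starvation difference past the threshold, and those called for an siRNA; TARS1, named for its siRNA calls, was shown with the first, and NARS1 was added after its values were seen. Alternatives were quantile normalization, no filter and a stricter one (60% left out), the mean of clusters, array weights, no intensity trend, a span trend removed, the set alone, and leaving out each array. Promoter windows are from RefSeq, read with pandas 2.3.3.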

Additional observations from a re-analysis of the deposited data

Results flagged for a closer look

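The starvation difference of 14 synthetase genes differed between the sets by the contrast of the joint fit, given as the Nupr1 set at 9 h minus the NF-kB set. The difference was 1.63 for EPRS1, 1.48 for TARS1, 1.13 for NARS1, 0.99 for CARS1, 0.93 for AARS1, 0.78 for GARS1, 0.68 for LARS1, 0.67 for SARS1, 0.61 for WARS1, 0.58 for IARS1, 0.47 for YARS1, 0.43 for IARS2, 0.42 for MARS1 and -0.41 for FARSA. The calls of FARSA, IARS2, MARS1 and YARS1 were lost without single arrays (limma adjusted p up to 0.138, 0.128, 0.179 and 0.0592). Processing changes also ended calls, among them a span trend removed for FARSA and IARS2 (0.203 and 0.143) and quantile normalization for IARS2. FARSA and MARS1 lost theirs with no filter (0.0502 and 0.0551), array weights (0.0824 and 0.0745) and no intensity trend (0.072 for each). The other 10 were kept under every alternative that could be fitted. With siCtrl alone, the label that the sets share, the gap was 1.0 for EPRS1, 1.18 for TARS1 and 0.86 for NARS1, from single pairs. The part of the unstarved medium in these differences was not tested.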

How the results depend on the processing

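No paired analysis was possible because the labels give no replicate number to use as a block; the fit itself pairs arrays by siRNA and condition within each set. The counts of called members at 3, 6 and 9 h, against mock, with siRelA, with siRelB and between the sets stayed within 1.5 times of their values under the alternatives of scaling, filter, clusters, weights, moderation, span and set alone. For 9 h against 3 h, 2 members were called, against 4 after quantile normalization, 6 under the stricter filter, 1 with array weights, 1 without the intensity trend and 4 in the Nupr1 set alone. For siNupr1 the count was 3 without the intensity trend against 7. For siRelB against siRelA it was 1 with no filter on dim genes and 1 without the intensity trend against 4. The slope of the siNupr1 difference was called in 5 members in the Nupr1 set alone against 0, and the cause was not tested. Leaving out 1 array gave 14 to 19 calls against mock, 4 to 12 at 3 h, 6 to 14 at 6 h, 11 to 18 at 9 h, 0 to 7 for 9 h against 3 h, 2 to 10 for siNupr1, 3 to 11 for siRelA, 2 to 7 for siRelB, 0 to 6 for siRelB against siRelA, 11 to 17 between the sets and 0 to 0 for the slope. No member's called difference changed sign in any of these fits. A fit of 1 set alone could not give the difference between the sets. Among all called genes at 3 h, at 6 h and between 9 h and 3 h, the share that rose was 42.7%, 44.4% and 52.5% after quantile normalization, against 26.5%, 32.7% and 63.8% on the deposited values. The single array per group and the small number of arrays limit the precision.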
